A study of Homo sapiens with 12 samples.

Results

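Of the 77 nuclear genes that carry an MRPL or MRPS symbol, 72 (93.5%) had a peak of catalytically dead RNaseH1 within 1 kb of a gene boundary, against 67.1% of all protein-coding genes. A peak of catalytically dead REXO4 was found at 2 (2.6%), MRPL40 and MRPS6, against 3.82%. The members were all protein-coding genes of the RefSeq table of GRCh38.p14 (hg38) whose symbol is MRPL or MRPS followed by a digit, 77 of 19862 protein-coding genes with a usable position. They lie on 21 chromosomes, and 51 encode proteins of the large subunit and 26 proteins of the small subunit of the mitochondrial ribosome, with MRPS18A and MRPS30 counted in the large subunit, where their products sit. The rule uses symbols and positions only.

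The study asked whether REXO4 and RNaseH1 bind R-loops. It used 2 tet-on U2OS lines, from a human osteosarcoma, that stably carry nuclease-dead REXO4-D386A or RNaseH1-D210N. Each line was grown with 1 µg/ml doxycycline or without it for about 60 h. The 4 combinations gave 2 anti-Flag ChIP libraries and 1 input library apiece, 12 libraries in all. The labels name no loss of the cells' own REXO4 or RNaseH1 in either line and do not say whether a line is a single clone. The deposited values used here are 1 peak list per protein, with 1460 peaks for REXO4 and 54623 for RNaseH1, and neither the doxycycline state nor the number of libraries behind a list is given. There is therefore no replicate value for any peak, no comparison of doxycycline with its absence and no test between the proteins. Depth per library is unknown, and shares below are set beside the same share over all protein-coding genes without a test.

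Mitochondrial ribosomes translate the few membrane proteins encoded by mitochondrial DNA, which belong to the oxidative phosphorylation complexes. All of their protein components are encoded in the nucleus, made in the cytosol and imported, so the genes considered here are ordinary nuclear genes transcribed by RNA polymerase II. Part of the proteins descend from bacterial ribosomal proteins and part were added in the mitochondrial lineage. R-loops are structures in which nascent RNA pairs with its template DNA and leaves the other strand single, and they are common where transcription starts in CpG-rich DNA. RNase H1 cuts the RNA of such hybrids, and the D210N form keeps its binding but not its cutting. REXO4 is a nucleolar protein of the exonuclease family.

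The stretches of DNA that the results turn on are the 250 bases before the transcript start of 6 members, from RefSeq on GRCh38.p14. MRPL16 (chr11:59810779-59811028, minus strand) and MRPL51 (chr12:6493263-6493512, minus strand) had the highest RNaseH1 boundary folds among members with a promoter in the table. MRPL40 (chr22:19432295-19432544, plus strand) and MRPS6 (chr21:34073328-34073577, plus strand) are the members with a REXO4 peak. MRPL44 (chr2:223957213-223957462, plus strand) lies under the highest RNaseH1 fold of any member, and MRPS11 (chr15:88467458-88467707, plus strand) fills part of the gap between 2 members that share a peak; these last 2 were chosen after their values were seen. Each is written 5′ to 3′ on the gene's strand, and capitals mark the letters of the motifs searched below, on either strand.
MRPL16: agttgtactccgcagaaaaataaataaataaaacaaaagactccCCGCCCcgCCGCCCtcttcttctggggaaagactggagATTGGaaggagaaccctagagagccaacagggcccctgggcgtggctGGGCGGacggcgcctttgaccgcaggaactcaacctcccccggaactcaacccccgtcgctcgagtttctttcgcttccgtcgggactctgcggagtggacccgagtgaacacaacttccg
MRPL51: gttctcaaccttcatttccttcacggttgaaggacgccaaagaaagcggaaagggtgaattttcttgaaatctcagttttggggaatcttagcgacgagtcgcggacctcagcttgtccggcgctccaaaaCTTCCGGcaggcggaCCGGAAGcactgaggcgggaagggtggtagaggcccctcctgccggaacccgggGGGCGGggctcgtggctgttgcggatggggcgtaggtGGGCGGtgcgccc
MRPL40: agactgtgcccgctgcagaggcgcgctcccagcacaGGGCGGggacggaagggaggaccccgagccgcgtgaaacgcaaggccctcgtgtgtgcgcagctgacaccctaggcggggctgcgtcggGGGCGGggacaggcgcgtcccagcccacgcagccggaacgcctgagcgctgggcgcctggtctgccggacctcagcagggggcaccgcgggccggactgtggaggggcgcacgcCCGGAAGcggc
MRPS6: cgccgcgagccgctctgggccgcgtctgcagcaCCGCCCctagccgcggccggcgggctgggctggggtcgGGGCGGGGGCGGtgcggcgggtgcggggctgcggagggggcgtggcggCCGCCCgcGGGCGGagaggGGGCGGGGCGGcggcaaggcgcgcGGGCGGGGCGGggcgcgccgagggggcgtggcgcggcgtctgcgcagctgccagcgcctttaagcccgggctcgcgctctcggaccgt
MRPL44: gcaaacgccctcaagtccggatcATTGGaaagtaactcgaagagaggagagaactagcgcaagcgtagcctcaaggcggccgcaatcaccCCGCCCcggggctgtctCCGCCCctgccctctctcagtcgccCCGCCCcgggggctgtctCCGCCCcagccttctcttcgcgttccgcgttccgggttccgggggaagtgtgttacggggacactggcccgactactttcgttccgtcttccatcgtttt
MRPS11: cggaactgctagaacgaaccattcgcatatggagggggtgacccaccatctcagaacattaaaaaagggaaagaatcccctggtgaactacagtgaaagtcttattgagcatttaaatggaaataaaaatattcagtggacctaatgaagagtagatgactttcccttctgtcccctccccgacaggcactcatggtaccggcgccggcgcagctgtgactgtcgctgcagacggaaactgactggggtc
These sequences differ in make-up: over the promoter window of 300 bases, which adds 50 bases after the start, MRPS6 was 82.0% G and C and MRPS11 50.7%. The MRPS6 stretch holds 9 GC boxes, and the MRPS11 stretch holds none of the motifs.

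RNaseH1 peaks sat at nearly every member. The 72 members with a boundary peak compare with 13334 of all 19862 protein-coding genes (67.1%). Of the large subunit genes 47 of 51 had one (92.2%), and of the small subunit genes 25 of 26 (96.2%). Genes for proteins with bacterial kin had a peak in 43 of 46 cases and genes for proteins specific to mitochondria in 26 of 28, so the share differed little by subunit or by origin. The same held for 5 proteins of the mitochondrial ribosome with other symbols, all of which had a peak: PTCD3 at a fold of 3.66, DAP3 at 3.43, GADD45GIP1 at 3.18, AURKAIP1 at 2.53 and CHCHD1 at 2.15. Other housekeeping groups were as full. The share was 80 of 85 (94.1%) for cytosolic ribosomal protein genes, 75 of 83 (90.4%) for nuclear genes of oxidative phosphorylation subunits and 39 of 39 for genes of mitochondrial translation and ribosome assembly, as the plot of shares shows. The high share is thus one the members had in common with these lists.

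**Figure D1:**
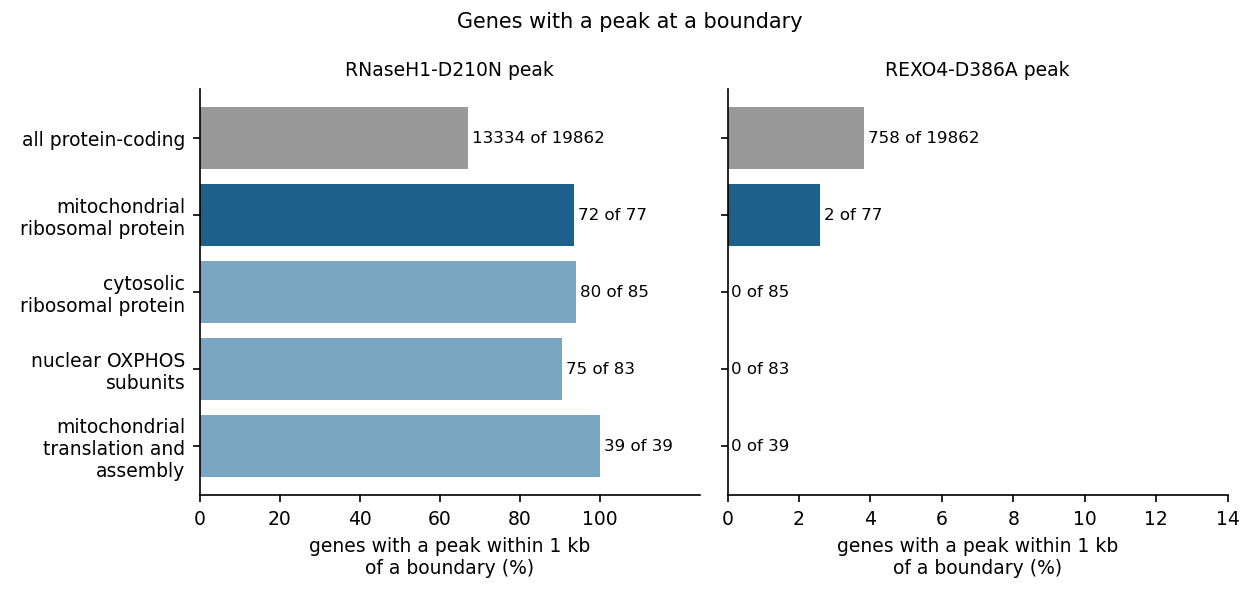
Share of genes (%) with a peak within 1 kb of a gene boundary, for RNaseH1-D210N (left) and REXO4-D386A (right, with its own axis), in all protein-coding genes and in 4 gene lists, with counts beside the bars. The 4 lists lie between 90.4% and 100% for RNaseH1, above the 67.1% of all protein-coding genes, and for REXO4 the lists hold 0 to 2 genes with a peak, counts too small to order, against 3.82% of all protein-coding genes.

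The members are short genes that often stand close to others. Their median length was 8.62 kb against 24.5 kb for all protein-coding genes. In 51 members (66.2%) a second protein-coding or lncRNA gene began or ended within 1 kb, against 41.7% of all protein-coding genes. Such a neighbour was also found for 50.6% of cytosolic ribosomal protein, 55.4% of oxidative phosphorylation and 61.5% of translation and assembly genes. Members with such a neighbour had a peak in 48 of 51 cases (94.1%), against 83.3% of all protein-coding genes with one. Members without a neighbour had a peak in 24 of 26 cases (92.3%), against 55.5%. The gap to the background was therefore wider among members that stand alone. By length, the share was 95.5% under 5 kb, 91.9% from 5 to 20 kb and 94.4% from 20 kb, where all protein-coding genes had 48.9%, 65.3% and 73.2%. The members had 92 distinct RNaseH1 boundary peaks, or 93 pairs of a member and a peak. In 48 of these pairs (51.6%) the peak also touched the window of another protein-coding gene, against 30.4% of the 17658 pairs over all protein-coding genes. For these peaks the gene that owns the signal cannot be told apart by position.

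The fold of the peaks was ordinary. The fold enrichment used here is the authors' value for each peak, and it is compared only within a list. It equals the fragments at the summit divided by those expected, with the same small pseudocount added to both. Among the 72 members the highest boundary fold had a median of 3.19, with an interquartile range of 2.77 to 3.80 and limits of 1.75 and 5.58. Over all protein-coding genes with a boundary peak the median was 3.17, with an interquartile range of 2.75 to 3.69. Thus 38 of 72 members were at or above the median of all such genes, and the members were more often marked but at a similar fold. At a fold of 3 or more the counts were 46 of 77 (59.7%) against 40.5%. The large and small subunits had medians of 3.18 and 3.20, and the genes with bacterial kin and those specific to mitochondria both had 3.19. The peak caller's −log10 q had a median of 19.9, against 15.7 over all protein-coding genes with a boundary peak. Fragments at the summit ranged from 25 to 230 with a median of 95.5, against 83. The 95% Poisson intervals that these give cover the counting error of these fragments only and take the expected value as known. By these intervals 15 members lay above the members' own median, 9 lay below it and 48 held it. Peaks at members had a median width of 702 bp, against 790 bp.

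**Figure D2:**
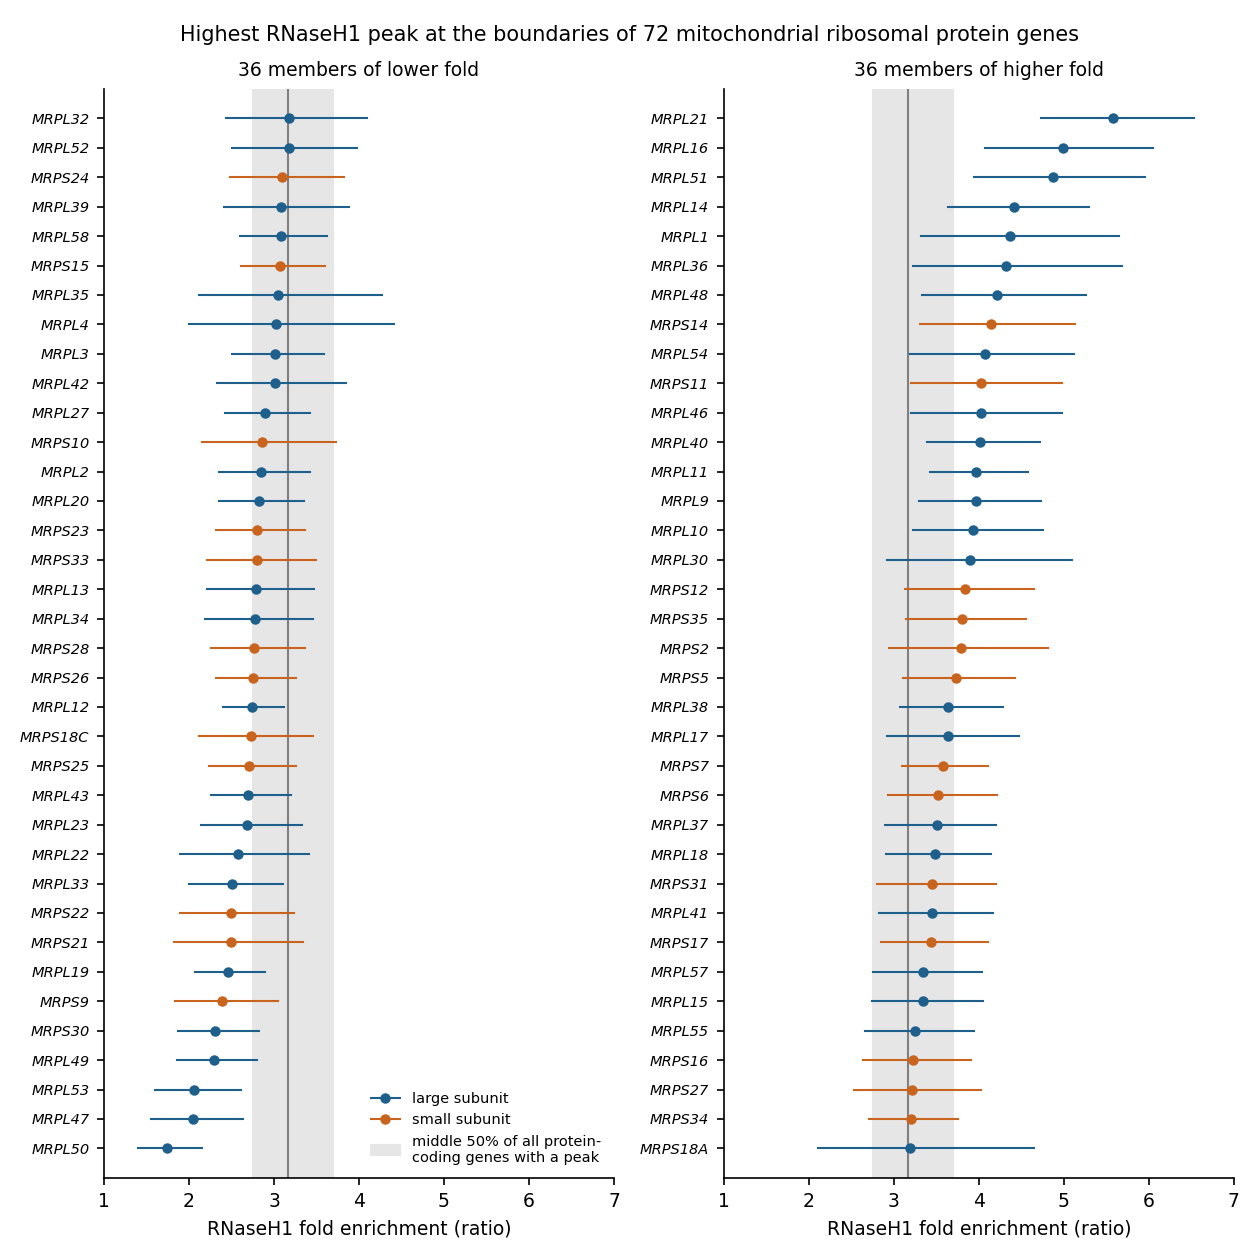
Highest RNaseH1 fold enrichment at a boundary (ratio, horizontal axis) for each of the 72 members with a peak, 36 to a panel, with 95% Poisson intervals of the fragments; blue is the large and orange the small subunit, the grey band the middle 50% of all protein-coding genes with a peak and the line their median. Most intervals cross the line at 3.17, and MRPL21 at 5.58 and MRPL50 at 1.75 are the ends of the range.

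The large subunit, with 51 of the 77 genes, supplied most of the genes at both ends of the range. MRPL21, whose product is an RNA-binding protein of the large subunit core, had the highest boundary fold, 5.58 (95% interval 4.74 to 6.53), from 154 fragments where 26.8 were expected. Its peak of 1020 bp lies across the boundary beside IGHMBP2, a helicase gene, and the side on which MRPL21 starts was not looked up here because its promoter is not in the table. A second, weaker peak of 3.32 (2.21 to 4.80) lies at the other boundary. MRPL16, a core protein near the peptidyl transferase centre, followed at 4.99 (4.08 to 6.05), with its summit 2 bp after the start, just past the printed stretch. MRPL51 had 4.87 (3.94 to 5.95) with its summit 64 bp before the start, between its pair of GC boxes and its pair of ETS letters, which begin 119 and 104 bases before the start. A second MRPL51 peak of 3.16 lay 629 bp before the start, on the side of NCAPD2, a condensin gene. MRPL14, a protein of the face between the subunits, had 4.41 (3.63 to 5.30) in a peak of 1650 bp, and MRPL1, of the stalk that guides the leaving tRNA, had 4.37 (3.32 to 5.65). The intervals of these 5 genes overlap in part, so their order is not settled by the counts.

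Below them came MRPL36 at 4.32, MRPL48 at 4.22, MRPS14 at 4.14, MRPL54 at 4.08 and the pair MRPL46 and MRPS11 at 4.02. MRPS14 and MRPS11 were the highest of the small subunit. At the lower end MRPL50 had 1.75 (1.40 to 2.15), with 87 fragments where 49.4 were expected and its summit 504 bp before the start, beside ZNF189. MRPL47 had 2.04 (1.56 to 2.64), MRPL53 2.06 (1.60 to 2.61), MRPL49 2.29 (1.86 to 2.80) and MRPS30 2.31 (1.87 to 2.83). The intervals of these lowest genes do not meet those of MRPL21 or MRPL16. Among the lowest, MRPL49 and MRPS30 had 94 and 92 fragments, close to the median of all members. Their expected values were 40.5 and 39.3. MRPL53 and MRPL47 had fewer fragments, 66 and 57. The widest boundary peaks were those of MRPL40 (2217 bp), MRPS34 (1937 bp) and MRPL14 (1650 bp). Most peaks, counting those inside the gene, were found at MRPL23 with 5 and MRPL34 with 4, followed by 7 members with 3 each, MRPL2, MRPL36 and MRPL48 among them.

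The peaks sat at the starts. The RefSeq promoter table gives a strand for 69 members and for 15841 protein-coding genes, which separates starts from ends. A peak lay within 1 kb of the 5′ boundary of 64 of 69 members (92.8%), against 65.6%, and within 1 kb of the 3′ boundary of 8 (11.6%), against 11.5%. Ends were thus met about as often as in all genes, though the members are shorter. By length, the end shares were 22.7% under 5 kb, 9.38% from 5 to 20 kb and 0.0% from 20 kb, against 19.4%, 13.9% and 8.14%. In the shortest genes the same peak can meet both windows. The end share was 26.9% in cytosolic ribosomal protein genes, 10.4% in oxidative phosphorylation genes and 2.78% in translation and assembly genes. Among genes over 2 kb, the start alone had a peak in 55 of 65 members (84.6%), against 59.9%, and the end alone in none, against 2.8%. Of the 64, the strongest peak was on the start side in 61 (95.3%), against 90.5% of all genes. Those 61 summits had a median position 42 bp after the start, with an interquartile range from 64 bp before to 117 bp after it. Over all protein-coding genes the median was 120 bp after the start, from 53 bp before to 271 bp after. Within 250 bp of the start lay 80.3% of the member summits and 58.7% of all, and after the start lay 62.3% and 69.8%. Positions were also taken from the nearest transcript start in RefSeq's promoter table, for the 66 members and 10883 genes with a peak there. By that measure 80.3% and 65.6% lay within 250 bp, 57.6% and 65.8% lay after the start, and the medians were 28.5 and 84 bp. The gap within 250 bp was smaller there. By both measures the summits of the members were packed more closely around the start, and the profile shows them from the 5′ boundary.

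**Figure D3:**
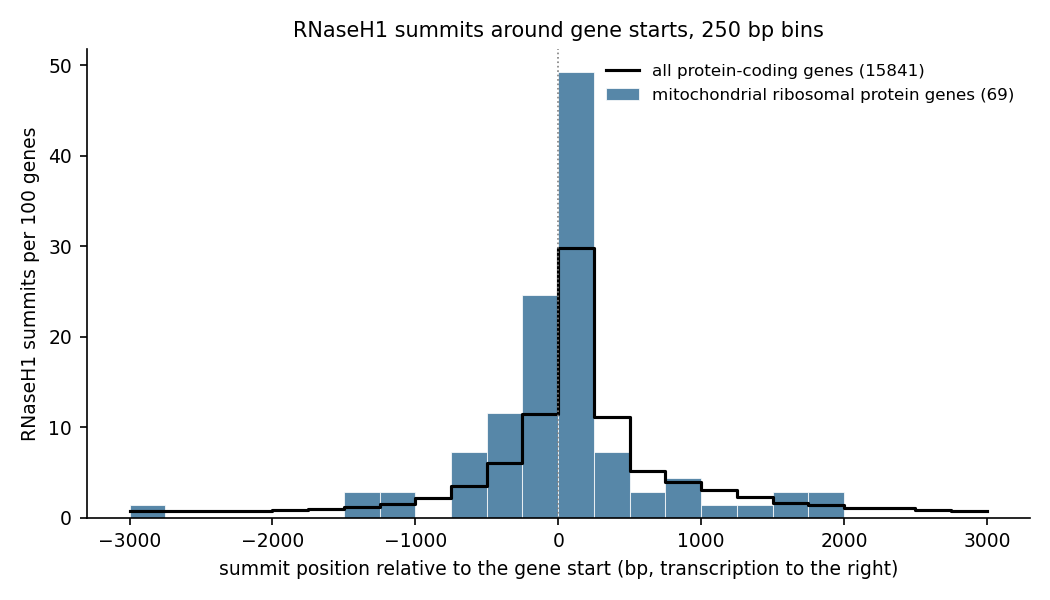
RNaseH1 summits per 100 genes in bins of 250 bp, up to 3 kb on either side of the 5′ gene boundary, with transcription to the right; bars are the 69 members with a strand and the line all 15841 protein-coding genes with one. The bin just after the start holds 49.3 summits per 100 members against 29.8 per 100 of all genes, and the bin just before it 24.6 against 11.5.

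Other gene boundaries near the start were common. In 38 of the 69 members (55.1%) another gene began or ended within 1 kb of the start, against 32.8% of all genes. These are not all shared starts, since ends of neighbouring genes are counted too. Start-side peaks of members had a median width of 822.5 bp with such a neighbour and 686 bp without, and 41.2% and 33.3% of their summits lay before the start. One pair of members shares a start region: MRPL46 and MRPS11 are transcribed away from each other across a gap of 320 bp, and a single RNaseH1 peak of 974 bp covers the gap and both starts. Its fold was 4.02 (3.21 to 4.98), and its summit lay 95 bp after the start of MRPS11 and 415 bp before that of MRPL46, so a large and a small subunit gene carry the same peak. Other members stand beside genes of related function: MRPL36 beside NDUFS6 and MRPL47 beside NDUFB5, both subunits of respiratory complex I, and MRPL49 beside FAU, which encodes a cytosolic ribosomal protein.

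Peaks deeper in the gene were scarce. A summit inside the gene and more than 1 kb from both boundaries was found in 14 of the 73 members over 2 kb (19.2%), against 48.1%. By length, the counts were 5 of 37 from 5 to 20 kb (13.5%, against 30.1%) and 8 of 18 from 20 kb (44.4%, against 64%). From 2 to 5 kb only 1 of 18 had one (5.56%, against 10.2%), too few to tell from the background. The related lists were also under the 48.1% of all genes over 2 kb. Their shares were 16.7% for cytosolic ribosomal protein, 27.3% for oxidative phosphorylation and 30.8% for translation and assembly genes. The 14 members held 21 such peaks, with 4 of them in MRPL23, whose folds ran from 2.46 to 3.74 on 11 to 20 fragments and whose intervals all overlap. No member had a REXO4 peak there, against 2.05%.

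MRPL44 and MRPL24 show how much the choice of boundary matters. MRPL44, which encodes a large subunit protein with a ribonuclease fold, had no boundary peak but 1 inside peak with a fold of 10.5 (9.10 to 12.03), from 203 fragments where 18.5 were expected. Only 10 of the 8962 genes with an inside peak reach that fold (0.112%). The transcript start that RefSeq's promoter table gives for MRPL44 lies 6609 bp inside the outer boundary of the gene, and the summit is 46 bp before it, within the stretch printed above with its 4 GC boxes. MRPL24 has its listed start 1628 bp inside the boundary, and an inside peak of 2.31 (1.87 to 2.83) has its summit 67 bp after it. MRPL36 has its start 1597 bp inside, and for all protein-coding genes with a strand a start more than 1 kb inside was found in 8.04%. Taken from the listed starts, 66 of 69 members (95.7%) had an RNaseH1 peak within 1 kb, against 68.7%. By fold there, MRPL44 stands far above the next member with a listed start, MRPL16, and their intervals do not meet. Of the 10883 genes with a peak at a listed start, 32 reach the fold of MRPL44.

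**Figure D4:**
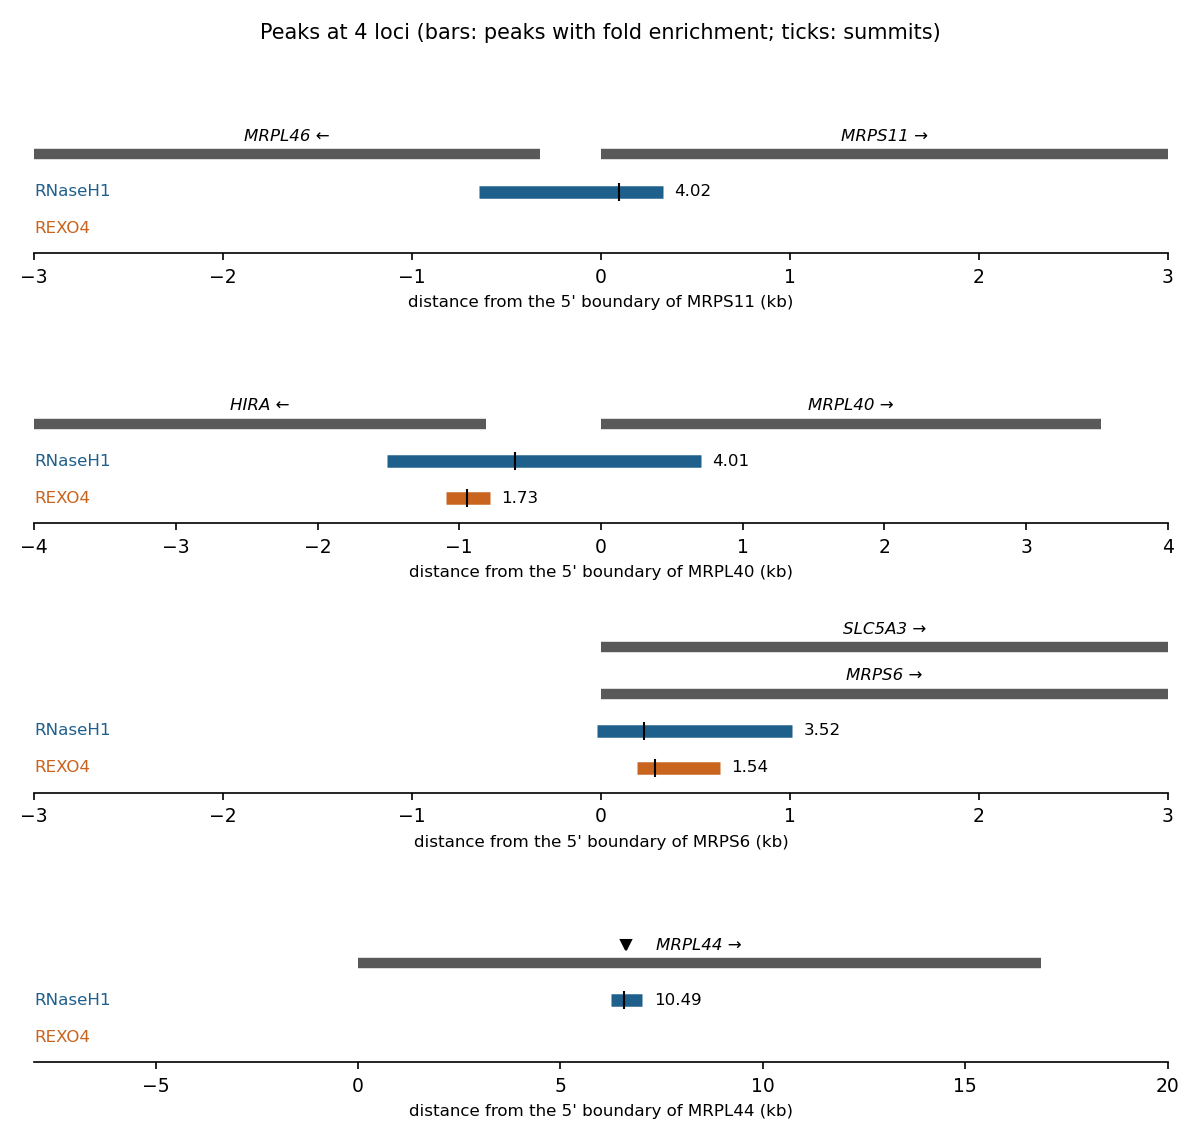
Genes (grey, arrows show the direction of transcription), RNaseH1 peaks (blue) and REXO4 peaks (orange) at 4 loci, by distance in kb from the 5′ boundary of the named member; numbers are fold enrichments, ticks summits and the triangle the listed start of MRPL44. The MRPL46 and MRPS11 pair shares 1 RNaseH1 peak, both REXO4 peaks lie inside RNaseH1 peaks, and the MRPL44 peak of 10.49 stands at its listed start.

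In MRPL28, MRPL45 and MRPS18B no RNaseH1 peak was found at a boundary, at a listed start or inside. MRPL28, a core protein of the large subunit, lies 10.7 kb from the nearest peak, and the gene next to its start, PGAP6, has none at its boundaries either. MRPL45, which anchors the ribosome to the inner membrane, lies 8.03 kb from the nearest peak. MRPS18B, a small subunit gene in the major histocompatibility complex, lies 46.2 kb from the nearest peak, in a span of 116 kb without any. Of the 6 genes within 50 kb of MRPS18B, 2 had a boundary peak, and the genes on both of its sides, PPP1R10 and ATAT1, had none. The promoters of the 3 genes were CpG-rich: their median ratio of observed to expected CpG was 0.996, against 0.873 for the 66 members with a peak over the promoter. A gene missing from a peak list had no call there, and the files do not show how near it came to one.

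REXO4 peaks were few at the members, as they were over all protein-coding genes. The 2 members with a boundary peak compare with 758 of all protein-coding genes (3.82%), so the share is close to the background. Both also had an RNaseH1 peak, which makes 2 of 77 with both (2.6%) against 3.49%. None of the 85 cytosolic ribosomal protein genes, 83 oxidative phosphorylation genes or 39 translation and assembly genes had a REXO4 peak. The median distance from a member to the nearest REXO4 peak was 486 kb, and 3 members had one within 10 kb, MRPS7 being the third at 4686 bp. Neither value was computed for all protein-coding genes, so they cannot be read as a trait of the members.

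At MRPL40, a large subunit gene, the REXO4 fold was 1.73 (1.44 to 2.06), from 122 fragments where 70.1 were expected. The peak of 316 bp has its summit 945 bp before the start of MRPL40 and lies at the start of HIRA, a histone chaperone gene transcribed the other way, 812 bp off. It lies wholly within the RNaseH1 peak of 2217 bp (fold 4.01, 3.39 to 4.72), with 338 bp between the summits. At MRPS6, a small subunit gene, the REXO4 fold was 1.54 (1.30 to 1.83), from 135 fragments where 87.0 were expected. That summit lies 287 bp after the start, which MRPS6 shares with SLC5A3, the gene of a myo-inositol transporter, so the peak belongs to both by position. All 440 bp of it lie in the RNaseH1 peak (fold 3.52, 2.93 to 4.21), with 59 bp between the summits. Both REXO4 folds are under the median of 2.05 for the highest REXO4 peak at each protein-coding gene that has one. Neither peak covers the promoter window of its member, and no member had a REXO4 peak over that window.

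The promoters themselves could be read for 69 members. An RNaseH1 peak overlapped the window of 300 bases in 66 of them (95.7%), against 60.3% of 15841 protein-coding promoters. The member promoters had a median G and C content of 60.3%, below the 66.7% of all promoters under an RNaseH1 peak and the 62.7% of all. Their median CpG ratio was 0.879, against 0.861 and 0.761. The G and C content of the members was thus below that of marked promoters, and their CpG ratio slightly above. All promoters without an RNaseH1 peak over them had medians of 53.0% and 0.317, both lower than the members. Whether base composition goes with the marking of members was not tested.

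Letters of 6 motifs were searched on both strands of these windows, and no motif contains another. The ETS letters CCGGAAG, the core bound by a large family of activators, were in 29 member promoters (42.0%), against 14.1% of all and 20.7% of all under a peak. The YY1 letters AAGATGGC were in 20 (29.0%), against 3.86% and 5.45%. The NRF1 letters GCATGCGC, of a factor long tied to nuclear genes of mitochondria, were in 6 (8.7%), against 4.28% and 6.17%. At least 1 of these 3 was in 42 members (60.9%), against 20.2% and 29.1%. The GC box GGGCGG was in 59.4%, against 58.3% and 76.9%, the CCAAT letters in 29.0% against 36.4% and 36.2%, and TATAAA in 2.9% against 9.75% and 4.48%. Related lists had their own mix: ETS letters were in 32.8% of cytosolic ribosomal protein promoters, 29.9% of oxidative phosphorylation promoters and 50.0% of translation and assembly promoters. YY1 letters were in 11.9%, 16.4% and 8.33% of these, and NRF1 letters in 4.48%, 19.4% and 11.1%. A match describes letters in a window and not a bound factor.

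**Figure D5:**
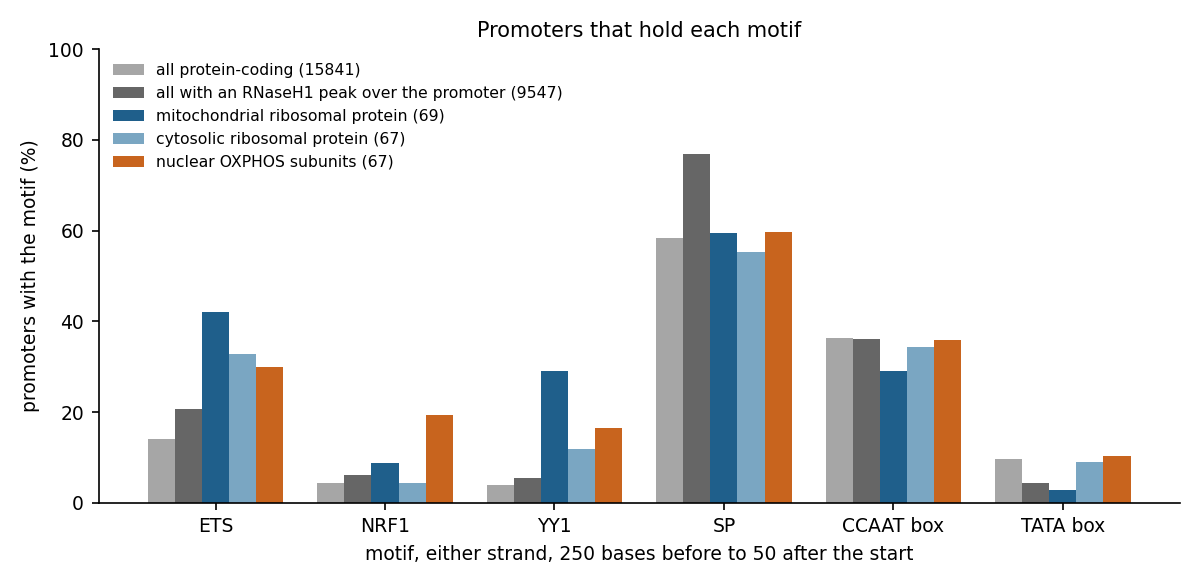
Share of promoters (%) that hold each of 6 motifs on either strand in the window from 250 bases before to 50 after the start, for 5 sets of promoters with their numbers in the legend. The members exceed both sets of all promoters for the ETS letters (42.0%) and the YY1 letters (29.0%), and lie below the promoters under an RNaseH1 peak for the GC box (59.4% against 76.9%).

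Pseudogenes with MRPL or MRPS symbols were marked at a low share, near that of all pseudogenes. Of 106 pseudogenes with such symbols, 7 (6.6%) had an RNaseH1 boundary peak, against 1660 of all 16655 pseudogenes (9.97%). None had a REXO4 peak, against 0.39%. The 106 include 6 named for MRPS36, a symbol that no member carries, and MRPS36P6, at a fold of 4.16, is among the 7. The highest of the 7 was MRPS31P5 at a fold of 5.00 and the lowest MRPL15P1 at 2.19. MRPL45P2 had a peak at 3.46, while its parent MRPL45 had none. Reads of near-identical copies can be placed at either, and how the authors treated such reads is not stated.

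The motifs were also set beside the highest fold at either boundary, and no relation was tested. At 3 members that fold came from a peak nearer the end than the start. Members without a boundary peak, MRPL44 among them, are left out, so the fold is not always that of the promoter peak. Members with ETS letters and a boundary peak had a median fold of 3.05 (28 genes, 2.04 to 4.99) and those without 3.39 (36 genes, 1.75 to 4.41), ranges that overlap. With and without YY1 letters the medians were 3.18 and 3.24, and with and without the GC box 3.22 and 3.01. In the printed stretches, which leave out the 50 bases after the start, MRPL51 and MRPL40 hold ETS letters, MRPL16, MRPS6 and MRPL44 hold GC boxes without them (the ETS letters counted for MRPL16 do not lie wholly within its stretch), and MRPS11, under a peak of 4.02, holds no motif letters before its start.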

How the data were processed

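The libraries were anti-Flag ChIP-seq and input of 2 tet-on U2OS lines. The submitters' processing notes name, without roles or order, MACS2 2.1.0.20150731, HISAT2 2.2.1, Trim Galore 0.6.10, deepTools 3.5.1, SAMtools 1.17 and Cufflinks, on build hg38. For the calls, the control, pooling and threshold are not given in the sources used. Peak names of both lists carry ChIPseq2, which may mean 1 replicate. The largest q was 0.179 for REXO4 and 0.198 for RNaseH1.

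The authors deposited, for each peak, a fold enrichment (a ratio), a −log10 p and a −log10 q, an integer score and a summit offset. The deposited score was not used. The deposited −log10 p served with the fold to recover the fragments at the summit, as the whole number whose Poisson tail gives that p, within 0.05 fragments. This held for 1459 of 1460 REXO4 and all 54623 RNaseH1 peaks. Exact 95% Poisson intervals of the fragments were divided by the expected value, with the same small pseudocount added to both, as in the fold. The recovery was tested on simulated data.

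Genes came from RefSeq's table for GRCh38.p14, of which 58957 of 59792 were kept. The other 835 have no position on chromosomes 1 to 22, X or Y or break the order of positions along one. A boundary peak overlaps, by at least 1 bp, the 1 kb on either side of a gene boundary. An inside peak has its summit more than 1 kb from both. Strand and promoters came from RefSeq's promoter table, which matched 69 members. Tools were Python 3.11.15, pandas 2.3.3, NumPy 2.4.6, SciPy 1.17.1 and matplotlib 3.10.9.

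No test was run, since each protein has 1 list. The members and lists were chosen with earlier results of these data known. Named members are the 10 of highest and 5 of lowest RNaseH1 boundary fold, those with a REXO4 peak, those without an RNaseH1 boundary peak, the 3 with the widest peaks, and MRPL23, MRPL34 and MRPL2 for most peaks, the last tied at 3 with 6 others and taken by symbol. The other named members, and the motifs, were taken up after values were seen. Alternatives were other windows, q and fold limits, overlap by summit or by 100 bp, members without a near neighbour and, added after seeing the data, listed transcript starts.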

Additional observations from a re-analysis of the deposited data

How the results depend on the processing

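No paired analysis was possible because each protein has 1 peak list and no value per library, and for the same reason no replicate could be left out. The count of 72 members with an RNaseH1 boundary peak lay between 70 and 73 with windows of 500 or 2500 bp, q limits of 0.01 or 1e-05, and overlap by summit or by 100 bp. It was 46 at a fold of 3 or more (59.7%, against 40.5% of all protein-coding genes), 24 of the 26 members with no other boundary within 1 kb (92.3%, against 55.5%), and 66 of 69 at listed transcript starts (95.7%, against 68.7%). The 2 members with a REXO4 boundary peak became 1 with a window of 500 bp (against 3.33% of all), as did the 2 with both proteins (against 3.0%). They became 0 at a q of 1e-05 or less (against 2.12%) and 0 at a fold of 3 or more (against 0.398%). The 14 members with an inside RNaseH1 peak became 9 beyond 2500 bp from a boundary (11.7% of 77, against 39.1%) and 7 at a q of 1e-05 or less (9.09%, against 24.4%), with fewer peaks left in each case by construction. The median fold of 3.19 was 3.18 with the peak of lowest q or the window of 500 bp. The REXO4 counts rest on 2 peaks of low fold, so a share under the background is not detectable here. Absence from a list does not show absence of signal, and library depth is unknown.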

Other observations

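The mitochondrial genome, which the products of these genes serve, held 1 REXO4 peak, at positions 16100 to 16394, in the control region. Its fold was 1.67 (95% Poisson interval 1.59 to 1.75) on 1671 fragments. The RNaseH1 list had no peak there.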
